A study of Homo sapiens with 6 samples.

Results

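FGR and 6 other nonreceptor tyrosine kinases of myeloid cells (LYN, FYN, FES, SYK, BTK and CSK) were examined in the established cell line NB4, derived from an acute promyelocytic leukemia, with and without ARID1A deficiency. The 7 genes were chosen by name out of 52992 genes, and all 7 were among the 18514 genes that passed a filter on low counts. FGR was chosen by its measured level, which was lower in ARID1A-deficient than in control samples of these data. Its difference from the control is therefore given as a description with no test. The question was whether the other kinases followed it.

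All cells expressed Cas9, carried a small guide RNA (sgRNA) under doxycycline control, and received 1 µg/ml doxycycline for 7 days, the control cells included. LacZ cells (genotype WT in the labels) expressed an sgRNA against a bacterial gene that human cells lack. The sg1 and sg5 cells expressed different sgRNAs against ARID1A, a DNA-binding subunit of the BAF subclass of SWI/SNF chromatin remodelers. Together these cells are called ARID1A-deficient. RNA was sequenced from 2 replicates per group. The methods of the study state that cells were sorted for the reporters of Cas9 and of the sgRNA vector, which leaves pools of edited cells and not clones, and that they were kept for some days without doxycycline before RNA isolation. The labels do not say whether replicates were separate cultures, so p-values measure only the spread between these samples, which may be technical.

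Src family kinases sit at the inner face of the plasma membrane and phosphorylate the tyrosines of ITAM motifs in immune receptors and their adaptors. SYK binds the phosphorylated ITAM, and the signal passes through adaptors and TEC family kinases such as BTK to phospholipase C gamma. CSK holds Src family kinases in check by phosphorylating their tail, and phosphatases, phosphoinositide phosphatases and ubiquitin ligases limit the pathway further. FGR and LYN are Src family members known from neutrophils and monocytes, where they act downstream of Fc receptors and integrins.

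FGR lies on the minus strand of chromosome 1, and its annotated transcripts start at several positions. The sequences just upstream of the upstream start (FGR-203) and of the middle start (FGR-201) are shown because the FGR counts are divided by start further on. They are RefSeq sequence of build GRCh38.p14 at chr1:27635278-27635435 and chr1:27626598-27626847, read 5′ to 3′ on the strand of the gene. Capitals mark GAGGAA, an ETS core of the kind that PU.1 binds, in the first sequence, and ACCACA, the reverse complement of the RUNX core TGTGGT, in the second.
FGR upstream start: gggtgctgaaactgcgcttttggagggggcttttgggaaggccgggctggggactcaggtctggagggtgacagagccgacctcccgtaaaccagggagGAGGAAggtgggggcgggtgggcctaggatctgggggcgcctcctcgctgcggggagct
FGR middle start: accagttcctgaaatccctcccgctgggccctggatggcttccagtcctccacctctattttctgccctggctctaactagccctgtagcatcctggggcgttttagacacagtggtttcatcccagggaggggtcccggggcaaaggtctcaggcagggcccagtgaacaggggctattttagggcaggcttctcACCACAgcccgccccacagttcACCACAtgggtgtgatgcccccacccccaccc

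Motifs were searched on both strands in windows of 300 bases around RefSeq gene starts. GAGGAA stood in 1 of the 2 FGR windows and in 27.9% of 35116 windows of all genes. TGTGGT stood in the other FGR window and in 13.1% of all windows. The letters AGATAA of a GATA core (10.3% of all windows) and TTGCNNAA of a C/EBP core (10.5%) were in neither FGR window. Among the other kinases, GAGGAA was found in 2 of 3 windows of SYK, 2 of 2 of BTK, 1 of 1 of CSK, 0 of 4 of FYN and 0 of 1 of FES. These are matches of letters, not sites.

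The libraries held between 46131178 and 54843745 estimated counts. ARID1A itself was at 155.0 and 190.7 CPM (counts scaled to library size) in LacZ, against 211.0 and 191.1 with sg1 and 123.7 and 145.1 with sg5. Its mRNA thus lay at or above the LacZ samples in sg1 and below them in sg5. Small Cas9 deletions need not lower an mRNA, and protein was not measured in these files. In the study, an immunoblot of NB4 cells after 7 days of doxycycline showed ARID1A protein knocked out by its sgRNAs. On the first principal component of log2 CPM (34.4% of the variance), sg1 replicate 1 and sg5 replicate 2 stood apart at 34.3 and 46.8, while the other 4 samples lay between -30.3 and -11.3. No label names a batch for this division, and FGR, FYN, FES and the genes singled out among the regulators are given with and without these libraries. As in any bulk sample, fewer cells of a type and less RNA per cell cannot be told apart. By edgeR's quasi-likelihood test at a false discovery rate (FDR) of 0.1, adjusted by Benjamini-Hochberg over all 18514 genes, 7 genes (0.0378%) differed from LacZ in sg1, 18 (0.0972%) in sg5 and 31 (0.167%) when both sgRNAs were joined. Between sg1 and sg5, 1 gene differed (0.0054%).

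In LacZ cells, the kinases spanned a wide range of levels per transcript length. CSK was the most abundant at 151.5 ± 4.31 TPM (a level scaled to transcript length and library size, mean ± SD, n = 2), followed by FES at 132.7 ± 1.01, BTK at 107.5 ± 8.40 and SYK at 91.6 ± 7.76. FYN stood at 65.0 ± 11.4 TPM, LYN at 38.5 ± 0.0817 and FGR last at 4.79 ± 0.136. The ranges of neighbours in this order did not overlap, although each range rests on 2 samples. In sg1 the mean of LYN was above that of FYN, and in sg5 LYN was above FYN and BTK above FES. FGR was last in each of the 3 groups.

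**Figure D1:**
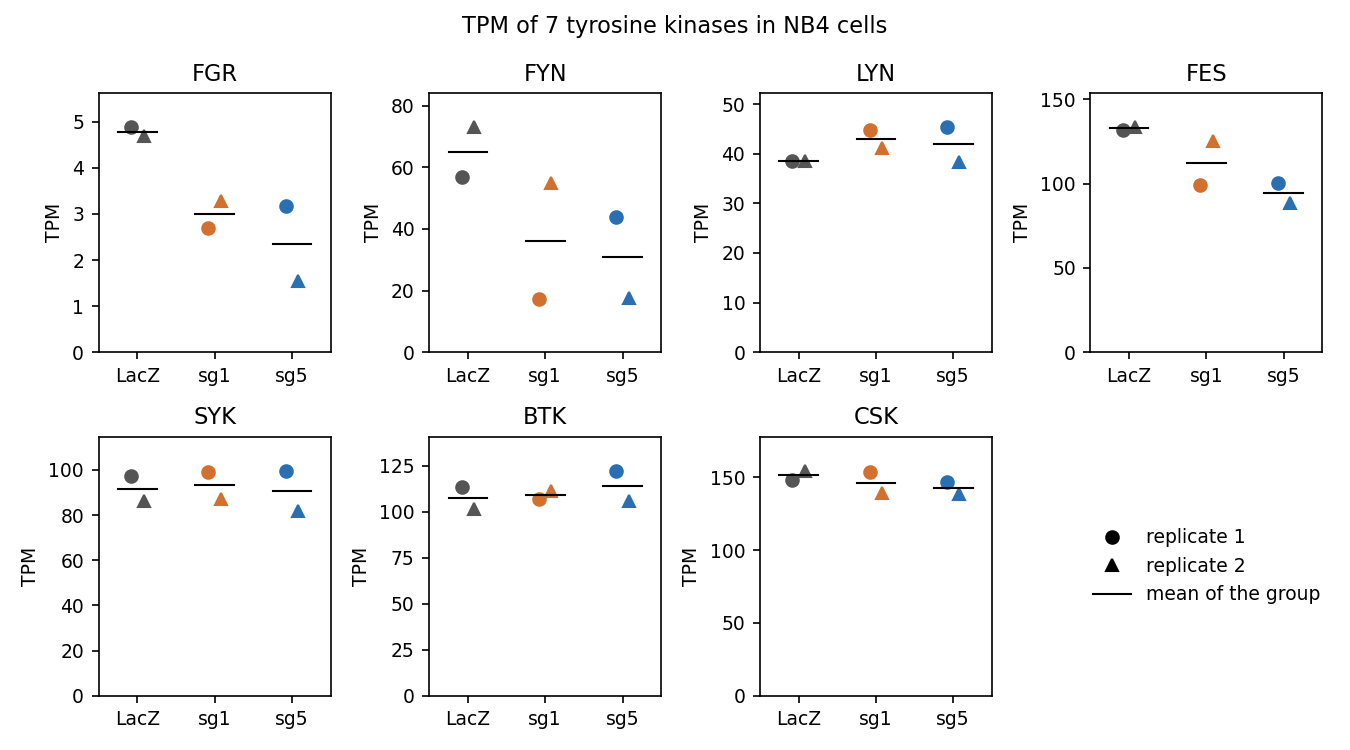
TPM (vertical axis, from 0, a separate scale per gene) of the 7 kinases in LacZ, sg1 and sg5; points are samples, with a circle for replicate 1 and a triangle for replicate 2, and lines are group means. The 4 ARID1A-deficient samples lay between 1.55 and 3.29 TPM for FGR, below both LacZ samples at 4.69 and 4.88, whereas SYK, BTK and CSK overlapped between the groups.

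FGR (chr1:27612064-27635277, GRCh38), the Src family kinase whose level chose the topic, had 400 and 363 estimated counts in LacZ, against 187 and 199 with sg1 and 216 and 147 with sg5. After scaling to library size, the levels were 7.59 and 7.20 CPM in LacZ, against 3.70 and 4.48 with sg1 and 4.60 and 2.91 with sg5. All 4 ARID1A-deficient samples lay below both LacZ samples, and sg1 and sg5 overlapped. The log2 fold change from LacZ was -0.86 ± 0.26 (SE) in sg1 and -0.98 ± 0.26 in sg5, which left 55.2% and 50.7% of the LacZ level. These values come from the contrasts that chose the gene. Whether FGR was called in them varied with the processing, and such calls are not evidence for its fall. Without the libraries that stood apart the log2 fold changes were -0.72 in sg1 and -0.68 in sg5. Between sg1 and sg5, which did not enter the choice, FGR differed by 0.12 ± 0.26 (edgeR quasi-likelihood test, Benjamini-Hochberg adjusted p = 1.0).

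FGR counts were divided by the annotated start of the transcript. The downstream start (FGR-202) had 181.5 and 154 estimated counts in LacZ, against 35.5 and 78.5 with sg1 and 90.8 and 0 with sg5. The upstream start (FGR-203 and FGR-207) had 123.2 and 153.6 in LacZ, against 70.6 and 55.0 with sg1 and 32.1 and 53.0 with sg5. For both of these starts, every ARID1A-deficient sample was lower than both LacZ samples. The middle start (4 transcripts, FGR-201 among them) had 95.2 and 55.4 in LacZ, against 80.6 and 65.4 with sg1 and 92.7 and 94.0 with sg5, and the groups overlapped. The transcripts share most of their exons, so these values rest on how the quantification split shared reads, and the 0 in sg5 replicate 2 is an estimate and not an observed absence.

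**Figure D2:**
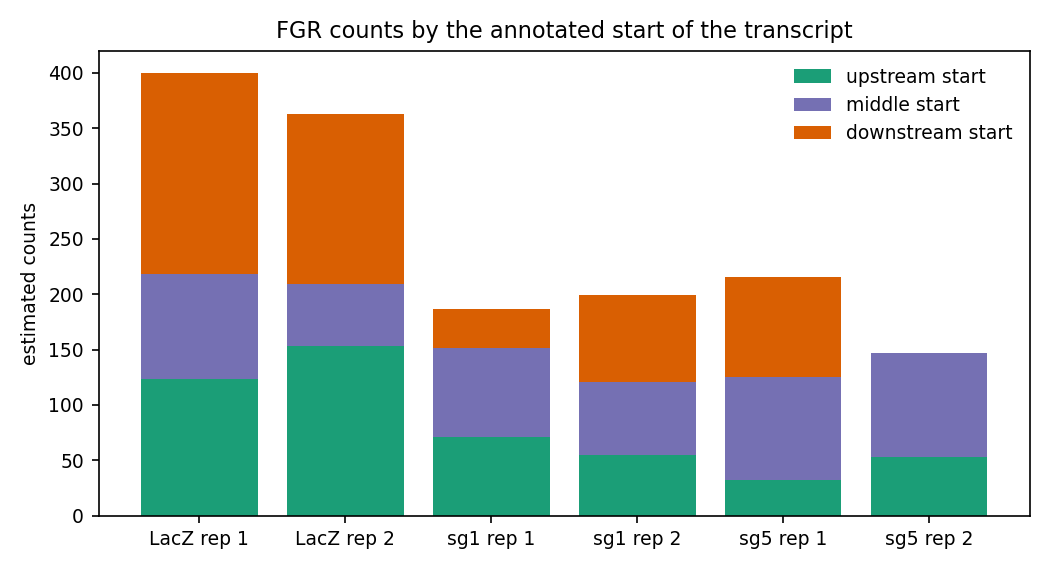
Estimated counts of FGR (vertical axis) in each of the 6 samples, stacked by the annotated start of the transcript. The middle start held between 55.4 and 95.2 counts in all samples, whereas the upstream and downstream starts were lower in each ARID1A-deficient sample than in each LacZ sample.

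LYN (chr8:55879813-56014168), the Src family kinase that both activates myeloid receptors and feeds their inhibitory phosphatases, did not follow FGR. It was at 79.5 and 80.2 CPM in LacZ, against 97.0 and 86.8 with sg1 and 95.8 and 83.9 with sg5. All 4 ARID1A-deficient samples lay above both LacZ samples in CPM. In TPM the groups overlapped, with sg5 replicate 2 at 38.4 and LacZ at 38.58 and 38.46. The log2 fold change was 0.20 ± 0.12 (SE) in sg1 and 0.17 ± 0.12 in sg5 and passed in neither (edgeR quasi-likelihood test, adjusted p = 0.99 and 0.74).

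FYN (chr6:111660332-111873452), a Src family kinase shared by T cells and many other tissues, was at 57.1 and 72.3 CPM in LacZ, against 21.2 and 57.7 with sg1 and 48.3 and 22.5 with sg5. Its low samples, sg1 replicate 1 and sg5 replicate 2, were the libraries set apart by the first principal component, and sg1 replicate 2 lay within the LacZ range. The log2 fold change was -0.71 ± 0.62 (SE) in sg1 and -0.87 ± 0.62 in sg5 (edgeR quasi-likelihood test, adjusted p = 0.99 and 0.75). Without these libraries it was -0.16 in sg1 and -0.42 in sg5, and -0.29 with both joined. FYN was then called in sg5 (edgeR quasi-likelihood test, adjusted p = 0.0186) and with both joined (adjusted p = 0.0611), in a fit with 1 library left in each ARID1A-deficient group, whose spread was assumed to be that of LacZ. The part of this division in the FYN level was not tested.

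Further Src family genes were read beside these. YES1, a widely expressed member, lay above LacZ in all 4 samples, with log2 fold changes of 0.26 and 0.29 that did not pass. SRC itself overlapped, at 0.01 and -0.17.

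FYN and LYN made up most of the summed TPM of the family in every sample. FGR made up 4.19% and 3.59% of the summed TPM of the 8 Src family genes in LacZ, against 3.26% and 2.81% with sg1 and 2.90% and 2.08% with sg5. FYN made up 48.9% and 55.8% in LacZ, against 20.8% and 46.9% with sg1 and 40.1% and 23.7% with sg5. LYN made up 33.1% and 29.4% in LacZ, against 54.3% and 35.2% with sg1 and 41.5% and 51.6% with sg5. The share of FGR was lower in every ARID1A-deficient sample than in LacZ, and that of LYN was higher, and the summed TPM was lowest in the libraries that stood apart, at 82.5 and 74.4.

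FES (chr15:90883695-90895776), a kinase with an F-BAR and an SH2 domain that is abundant in myeloid cells, was at 146.4 and 154.2 CPM in LacZ, against 119.1 and 139.3 with sg1 and 126.9 and 102.5 with sg5. Every ARID1A-deficient sample lay below both LacZ samples. The log2 fold change of -0.22 ± 0.14 (SE) in sg1 and -0.39 ± 0.14 in sg5 passed in neither (edgeR quasi-likelihood test, adjusted p = 0.99 and 0.63). Its lowest samples, sg1 replicate 1 and sg5 replicate 2, were again the libraries that stood apart, and without them the log2 fold changes were -0.11 and -0.25.

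The kinases on either side of the Src family in the pathway overlapped between the groups. SYK (chr9:90801787-90898549), which docks on phosphorylated ITAMs, ranged from 321.8 to 353.1 CPM in LacZ and from 321.9 to 382.6 in ARID1A-deficient cells, with log2 fold changes of 0.08 ± 0.14 (SE) and 0.06 ± 0.14. BTK (chrX:101349447-101390796), the TEC family kinase that activates phospholipase C gamma, ranged from 160.4 to 176.7 CPM in LacZ and from 172.6 to 198.6 in ARID1A-deficient cells, with 0.07 ± 0.12 and 0.14 ± 0.12. CSK (chr15:74782057-74803198), the inhibitor of the Src family, ranged from 221.5 to 234.4 and from 205.2 to 231.3, with -0.06 ± 0.12 and -0.11 ± 0.12. None of these 3 passed the test in either contrast, where the lowest adjusted p was 0.78 (edgeR quasi-likelihood test).

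Counted together, 0 of the 6 kinases other than FGR were called in sg1, in sg5 or with both joined, by edgeR or by DESeq2. Of all genes, edgeR called 0.0378%, 0.0972% and 0.167%, and DESeq2 called 0.742%, 1.35% and 1.81%. With shares this low, 0 of 6 does not set the kinases apart from other genes. At an unadjusted p under 0.05, edgeR counted 0 in sg1, and 1, FES, in sg5 and with both joined, beside 4.15%, 7.47% and 7.21% of all genes. With sg1 against sg5, 0 of the 7 were called and 0 had an unadjusted p under 0.05. Of the 6, FES lay below and LYN above LacZ in CPM in all 4 ARID1A-deficient samples, and 4 overlapped. Among all genes tested, 10.4% lay below and 9.72% above in this way. The median log2 fold change of the 6 was 0.00 in sg1 and -0.03 in sg5, beside 0.00 and -0.01 over all genes tested.

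**Figure D3:**
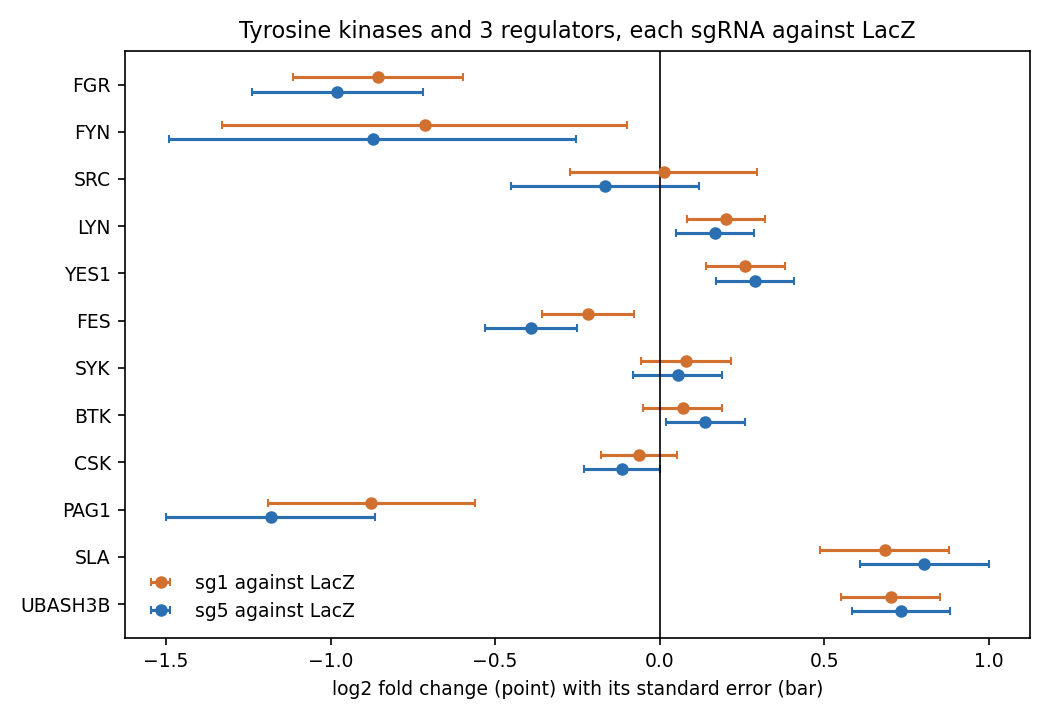
Log2 fold change from LacZ (horizontal axis, bars are SE) of the 7 kinases, 2 further Src family genes and 3 regulators for sg1 and sg5. FGR lay at -0.86 and -0.98, and SYK, BTK and CSK lay within 0.14 of 0; the 3 regulators PAG1, SLA and UBASH3B were chosen for display after their values were seen.

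The wider pathway was taken from 6 lists of kinases, receptors, adaptors and negative regulators with 139 genes besides FGR, of which 122 were tested. By edgeR, 0 of the 122 were called in sg1, in sg5 or with both joined. At an unadjusted p under 0.05 there were 11, 27 and 30, where all genes gave 4.15%, 7.47% and 7.21%. DESeq2 called 1, 6 and 5 of them, where it called 0.742%, 1.35% and 1.81% of all genes to which it gave an adjusted p. The median log2 fold change was -0.06 in sg1 and -0.15 in sg5. In all 4 ARID1A-deficient samples 27 of the 122 lay below both LacZ samples and 12 above, with 83 overlapping, beside 10.4% and 9.72% of all genes, the shares to set beside the counts of each list.

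Cytoplasmic tyrosine kinases outside the Src family had a median log2 fold change of -0.08 with both sgRNAs joined over 22 genes tested, with 2 below and 1 above LacZ in all samples. TYK2, which signals for interferon and cytokine receptors, was the most abundant, with log2 fold changes of 0.00 in sg1 and -0.13 in sg5. PTK2B, a kinase of integrin and calcium signaling, stood at 0.05 and -0.06. Among 17 receptor tyrosine kinases the median was -0.32, with 5 below and 1 above LacZ in all samples. The most abundant of them were the growth factor receptors IGF1R, CSF1R, FGFR1 and EPHB4, at 0.00, -0.23, -0.23 and -0.10 with both joined. TIE1, an endothelial receptor also found on blood progenitors and chosen after its values were seen, had 357 and 315 counts in LacZ, against 183 and 145 with sg1 and 190 and 121 with sg5. It lay below LacZ in all 4 samples, with log2 fold changes of -0.92 ± 0.28 (SE) and -1.02 ± 0.28, and did not pass (edgeR quasi-likelihood test, adjusted p = 0.83 and 0.47). Without the libraries that stood apart the log2 fold changes were -0.996, which was called, and -0.686, which was not. The 1 gene above LacZ was FLT3, a receptor of early progenitors, whose sg1 replicate 2 and LacZ replicate 2 were both at 9.36 CPM.

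Among 17 receptors and ITAM adaptors tested, 5 lay below LacZ in all ARID1A-deficient samples and 0 above, with a median of -0.14 for both sgRNAs joined. The ITAM adaptors FCER1G and TYROBP, through which Src family kinases and SYK act, overlapped at -0.07 and -0.13. ITGB2, the beta chain of leukocyte integrins, stood at -0.20. SIRPA, an inhibitory receptor of myeloid cells, was below LacZ in all samples at -0.36 ± 0.15 (SE), and did not pass (edgeR quasi-likelihood test, adjusted p = 0.66).

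Among 31 adaptors and effectors, the median was -0.08, with 6 below and 3 above LacZ in all samples. LAT2, a transmembrane adaptor, and HCLS1, a substrate of Src family kinases that binds actin, stood at -0.04 and -0.01. PLCG2, the phospholipase C downstream of SYK and BTK, stood at 0.14. DOK3, an inhibitory adaptor, was below LacZ in all samples at -0.34 without passing.

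Among 33 negative regulators, the median was -0.06, with 9 below and 6 above LacZ in all samples. The phosphoinositide phosphatases INPPL1 and INPP5D stood at -0.06 and -0.03, and PTPN6, the SHP-1 phosphatase, at 0.14. After their values were seen, 3 regulators of Src family kinases were singled out, and none passed the test. PAG1, the membrane adaptor that recruits CSK, had 971 and 1162 counts in LacZ, against 437 and 621 with sg1 and 554 and 328 with sg5. UBASH3B, a phosphatase that acts on SYK and Src family kinases, had 2558 and 2005 in LacZ, against 4059 and 2816 with sg1 and 3403 and 3761 with sg5. PAG1 was lower in all 4 ARID1A-deficient samples, at log2 fold changes of -0.88 ± 0.32 (SE) and -1.18 ± 0.32, and UBASH3B was higher in all 4, at 0.70 ± 0.15 and 0.73 ± 0.15. With both sgRNAs joined, their edgeR adjusted p-values were 0.35 and 0.16. Without the libraries that stood apart their log2 fold changes with both joined were -0.69 and 0.62, and both were then called, in a fit that called 807 of all genes. SLA, a Src-like adaptor that lowers receptor signaling, was also above LacZ in all samples, at 0.74 with both joined (adjusted p = 0.29, edgeR), and was called at 0.51 without those libraries.

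**Figure D4:**
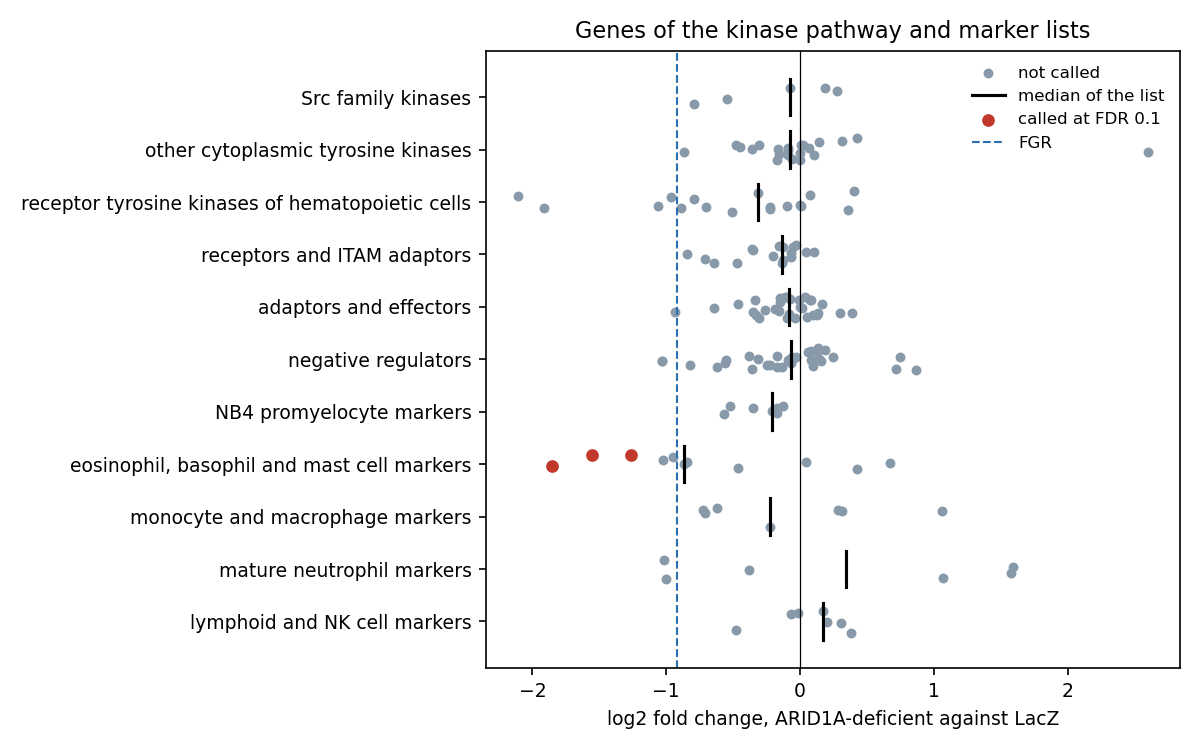
Log2 fold change of ARID1A-deficient cells from LacZ (horizontal axis) for each gene tested in 11 lists; black bars are list medians, red points are genes called at FDR 0.1, and the dashed line is FGR at -0.92. The called genes (PRG2, HDC and EPX) are markers of eosinophils, basophils and mast cells, and the medians of the 6 pathway lists lay between -0.32 and -0.06.

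Marker lists were read beside the kinases. Promyelocyte markers were abundant, with MPO, the granule peroxidase, at a mean of 7341 TPM in LacZ, although ELANE, the neutrophil elastase, was below the filter. Of 7 tested, 4 lay below LacZ in all ARID1A-deficient samples and 0 above, and 0 were called, with MPO at -0.13 and the granule proteases PRTN3, AZU1 and CTSG at -0.21, -0.35 and -0.52 with both joined. Of 11 eosinophil, basophil and mast cell markers tested, 8 lay below LacZ in all ARID1A-deficient samples and 1 above, with a median of -0.86 with both joined. By edgeR's quasi-likelihood test, 3 of them fell with both joined. They were PRG2, the major basic protein of eosinophils, by 1.55 on the log2 scale (adjusted p = 0.00634), HDC, the histamine-forming enzyme, by 1.26 (adjusted p = 0.0182), and EPX, eosinophil peroxidase, by 1.86 (adjusted p = 0.0182). All 3 fell in sg5, and PRG2 and HDC passed in sg1. A gene list of the study made from these samples names all 3, so their direction is not independent evidence.

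The summed TPM of the eosinophil, basophil and mast cell list ranged from 558.5 to 633.2 in LacZ and from 641.8 to 902.5 in ARID1A-deficient cells. RNASE2, an eosinophil and monocyte ribonuclease that alone held 449.2 TPM in LacZ, stood at 0.67 with both joined. RNASE3, GATA2 and TPSAB1, a granule ribonuclease, a transcription factor and a mast cell tryptase, stood at 0.04, -0.47 and -0.95. FCER1A, a defining chain of the IgE receptor, was at 0 counts in all samples, as were the neutrophil and NK cell receptors FCGR3A and FCGR3B.

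In 7 monocyte and macrophage markers the median was -0.23 and 0 were called, and their summed TPM ranged from 197.8 to 209.4 in LacZ and from 259.5 to 442.9 in ARID1A-deficient cells. LYZ, the lysozyme, was above LacZ in all samples at 1.06, FCN1, a monocyte lectin, stood at 0.28, CD68, a lysosomal protein, at 0.31, and CSF1R at -0.23. In 6 mature neutrophil markers the median was 0.35, with 3 below and 2 above LacZ in all ARID1A-deficient samples. The other 6 of the 12 listed did not pass the filter. MMP9, a gelatinase, lay below LacZ in all samples at -1.02 and the calgranulins S100A9 and S100A8 above at 1.58 and 1.59, CXCR2, a chemokine receptor, stood at -0.38, and none passed. In 7 lymphoid and NK cell markers the median was 0.17, with 0 called and NKG7, CD79B, CD3D and NCAM1 at 0.17, 0.20, 0.38 and -0.48. The part of these markers in the FGR level was not tested.

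Genes were also ordered by how like their profile over the 6 samples was to that of FGR. Likeness was the root mean square difference in log2 CPM, each gene taken relative to its own LacZ mean, over 13130 tested genes whose counts averaged 50 or more. The closest were HTRA3, a secreted serine protease, at 0.076, PRSS36, a serine protease, at 0.081, ITGA3, an integrin alpha chain, at 0.088, MMP14, a membrane matrix metalloproteinase, at 0.122, and the noncoding RNA LINC00599 at 0.129. HTRA3 had 7209 and 5856 counts in LacZ, against 3116 and 3086 with sg1 and 3648 and 2521 with sg5. The receptor tyrosine kinase TIE1 ranked 7th at 0.132, FYN 325th, FES 999th, CSK 4028th, SYK 7433rd, BTK 8369th and LYN 10322nd. This ordering is a description of 6 libraries that share depth and preparation.

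FGR starts 942 kb from ARID1A on the same chromosome, so its neighbours were examined. Within 1 Mb of the FGR start, 43 genes were tested, and edgeR called 0 in sg1, 0 in sg5 and 0 with both joined. At an unadjusted p under 0.05 there were 2, 6 and 4, beside 4.15%, 7.47% and 7.21% of all genes, and DESeq2 called 1, 3 and 3, beside 0.742%, 1.35% and 1.81%. Their median log2 fold change with both joined was 0.03, with 3 genes below and 3 above LacZ in all ARID1A-deficient samples. None of the 43 had a log2 fold change below that of FGR there. In sg5 alone 1 did, SESN2, a stress-response gene, at -1.04 ± 0.66 (SE). FGR was chosen for its fall in these contrasts, so its place among its neighbours is not evidence that the fall is local.

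AHDC1, the nearest gene by start at 30.8 kb, was below LacZ in all 4 ARID1A-deficient samples, with 31.2 and 38.8 CPM in LacZ, against 28.9 and 27.1 with sg1 and 21.7 and 23.8 with sg5. Its log2 fold change was -0.47 ± 0.12 (SE) with both joined (edgeR quasi-likelihood test, adjusted p = 0.35), and -0.53 without the libraries that stood apart, where it was called. Beyond it on the same side, BX293535.1 (an antisense RNA), GPR3 and MAP3K6 stood at -0.20, -0.13 and -0.01. On the other side, AL445490.1, IFI6, FAM76A and STX12 stood at 0.03, -0.19, -0.09 and 0.09. IFI6 is an interferon-induced gene and STX12 a vesicle fusion protein, and the groups overlapped in all 4 of these.

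**Figure D5:**
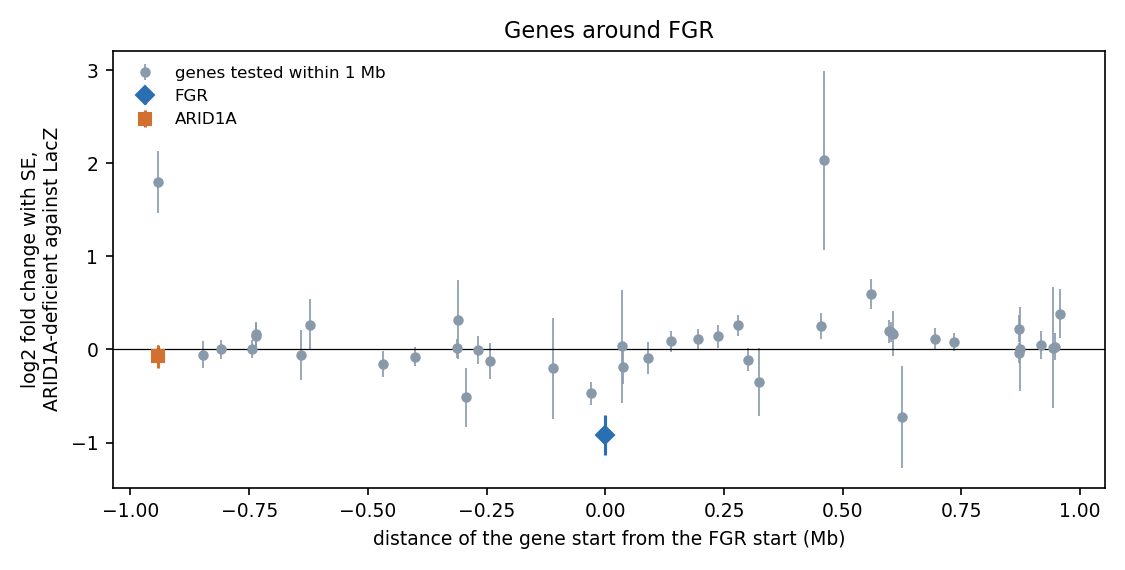
Log2 fold change of ARID1A-deficient cells from LacZ with SE (vertical axis) of the 43 genes tested within 1 Mb of the FGR start, against their distance from it in Mb (horizontal axis, negative towards ARID1A). FGR lay at -0.92 and ARID1A at -0.07, and the median of the 43 genes was 0.03.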

How the data were processed

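RNA-sequencing libraries of 6 samples were used. The authors quantified them per transcript with kallisto, as named in the submitters' processing notes with hg19 and DESeq2, and a kallisto version and transcript set are stated in the study only for alignment to the mouse. The deposited values were estimated counts, in which reads shared by transcripts are split by a model, and the deposited TPM values were scaled by the authors for effective length. Of 196354 transcripts, 181857 (92.6%) matched GENCODE 29 (GRCh38) by identifier and held 95.4% to 95.5% of the counts. Their sums over 52992 genes were rounded to integers. Coordinates are 1-based, on GRCh38, from that match. Promoter sequences are from RefSeq on GRCh38.p14, in which 6 of the 7 kinases had an entry and LYN had not. Whether counting used strand is not stated, so reads of antisense and overlapping genes cannot be told apart.

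Counts were fitted with edgeR 4.0.16 (R 4.3.3), TMM factors, a minimum count of 10 (filterByExpr), robust quasi-likelihood F-tests and group as the only term over all 6 samples. Benjamini-Hochberg adjustment ran over 18514 genes, and genes under an FDR of 0.1 were called. DESeq2 1.42.0, limma 3.58.1 on log2(TPM + 0.1) and log2(TPM + 1), other size factors and filters, a length offset, a replicate block and leaving out each replicate were alternatives. Leaving out both libraries that stood apart and a crossed block were chosen after seeing the data. Standard errors were derived from the F statistic. Fitting functions were tested on simulated data. Tables were joined with Python 3.11.15.

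The kinases and gene lists were chosen with earlier results of these data known. Named were the 7 kinases, Src family genes among those tested, called genes of each list and up to 4 others by mean TPM, the 5 genes most like FGR, and called genes and the 4 nearest tested genes on each side of FGR. TIE1, FLT3, PAG1, UBASH3B, SLA and SESN2 lie outside this rule and were chosen after their values were seen. Of the list genes, MRC1 was not analysed here. Sequences of the sgRNAs were not used here. A result that the naming rule covers is not reported here.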

Additional observations from a re-analysis of the deposited data

Results flagged for a closer look

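HDC was the only one of 13 genes checked in which 1 of the 4 ARID1A-deficient samples lay far from the others. Its lowest sample was sg5 replicate 1, whose gap to the nearest sample was 0.871 of the whole range of the 4. Chance gives such a gap in about 1 in 20 groups, and 13 genes were checked, so 1 such gene can arise by chance. The gap was taken on levels scaled to library size. These were 8.74 and 8.89 CPM with sg1 and 7.80 and 8.80 with sg5, all below 20.66 and 20.33 in LacZ.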

How the results depend on the processing

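Over 20 alternatives, the log2 fold change of FGR ranged from -0.99 to -0.54 in sg1 and from -1.33 to -0.68 in sg5, below 0 under each. The value of -0.54 came from limma on log2(TPM + 1), that of -1.33 from leaving out sg5 replicate 1 and that of -0.68 from leaving out both libraries that stood apart. Of the values for the kinases under the alternatives, 549 kept their result and 21 changed sign, none of which was called. Of the 549, 25 came from reading the main fit at an FDR of 0.05 and could not have changed. A kept result had the same direction and the same side of the threshold, except for FGR against LacZ. For FGR it had the same direction and a shift smaller than the SD within groups of its log2 CPM. With each replicate left out in turn, SYK ranged from -0.033 to 0.191 in sg1 and from -0.05 to 0.162 in sg5, and CSK from -0.158 to 0.031 in sg1. In sg1 against sg5 the ranges were -0.169 to 0.469 for FGR, -0.067 to 0.112 for LYN, -0.737 to 0.79 for FYN, -0.099 to 0.129 for SYK, -0.162 to 0.015 for BTK and -0.056 to 0.132 for CSK. SYK was at -0.026 in sg1 without the libraries apart and at -0.017 in sg5 under limma with either pseudocount. In sg1 against sg5 without the libraries apart, FGR was at -0.039, LYN at -0.142, SYK at -0.194 and CSK at -0.065. The causes were not tested.

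Of the 6 kinases tested against LacZ, 0 were called with any single replicate left out. FYN was called without the low-count filter, as 1 kinase in sg1, 1 in sg5 and 1 with both sgRNAs joined, and without the libraries apart in sg5 and with both joined. Calls of FGR against LacZ also varied with the processing and are not given, since those contrasts chose the gene. Of the 122 pathway genes, DESeq2 called 1 in sg1, 6 in sg5 and 5 with both joined. The counts were 5, 12 and 13 without the low-count filter, 1, 1 and 1 with a length offset, and 5, 14 and 15 without the libraries apart, which also gave 1 in sg1 against sg5. Leaving out each replicate gave 0 in sg1, 0 to 2 in sg5 and 0 to 5 with both joined. Of the 43 neighbours of FGR, DESeq2 called 1, 3 and 3, the fit without the low-count filter 2, 6 and 6 and the fit without the libraries apart 3, 6 and 5, with 0, 3 and 1 in sg1 against sg5. Fitting only the groups compared called 1 in sg5. Leaving out each replicate gave 0 to 1 in sg5, 0 to 2 with both joined and 0 to 1 in sg1 against sg5. Rescaling TPM to matched transcripts moved the LacZ means to 161.8 for CSK, 141.7 for FES, 41.1 for LYN and 5.11 for FGR and kept their order.

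Over all genes, the calls in sg1, in sg5, with both joined and in sg1 against sg5 were 7, 18, 31 and 1. DESeq2 gave 116, 201, 264 and 5, the fit without the low-count filter 345, 632, 701 and 86, and the fit without the libraries apart 423, 783, 807 and 209. Requiring a mean of at least 50 counts gave 4, 15, 19 and 0, limma on log2(TPM + 0.1) gave 1, 7, 2 and 3, limma on log2(TPM + 1) gave 3, 4, 4 and 0, and keeping unmatched transcripts gave 1, 1, 4 and 0. The fit without robust estimation gave 17 with both joined, an FDR of 0.05 gave 12 with both joined and 0 in sg1 against sg5, and the length offset gave 2 in sg1 against sg5. Fitting only the groups compared gave 18, 29 and 0 in the 3 comparisons of pairs of groups. Leaving out each replicate gave 1 to 33 in sg1, 0 to 78 in sg5, 3 to 193 with both joined and 0 to 8 in sg1 against sg5. The lowest count in sg5 was without LacZ replicate 2, and the highest with both joined was without sg5 replicate 1. The causes were not tested.

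Same-numbered samples did not deviate together, with correlations of 0.072 for LacZ and sg1, 0.012 for LacZ and sg5 and -0.206 for sg1 and sg5. With 2 replicates per group, these values cannot show whether same-numbered samples shared a culture or a run. With a replicate block, 1, 1, 3 and 0 genes were called, and the block with a length offset gave 1, 1, 5 and 0, with 1 pathway gene with both joined. Neither block called a kinase. A crossed replicate block called 59, 157, 194 and 2 genes, 3 pathway genes in each comparison with LacZ and 1 neighbour of FGR with both joined.

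Detection was limited by 2 replicates per group and by FGR counts of 147 to 400 per sample, and a kinase that missed the threshold was not shown to be unaffected.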
